A study of Schmidtea mediterranea with 152 samples.

Results

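The genes described here are 4 markers of the planarian anterior pole, read in muscle cells taken from the opposite end of the body. They are foxD (dd_Smed_v4_23249), notum (dd_Smed_v4_24180), zicA (dd_Smed_v4_22585) and follistatin (dd_Smed_v4_9584), chosen by name as known markers of that pole. Each had a single entry in the count table, so they make up 4 of the 26399 transcripts used. At least 20 reads over all cells were found for 3 of the 4, as for 19372 of all transcripts, and zicA stayed under that number.

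Single cells of asexual Schmidtea mediterranea, strain CIW4, came from tail tips cut at the midline of uninjured animals or from posterior blastemas cut at the midline 72 hours after transverse amputation. All animals had been starved before surgery, and only non-dividing cells with 2N DNA content were sorted, 1 to a well. Wells positive for collagen in a qRT-PCR screen became muscle cells, and those also positive for wnt1 became pole cells. This gave 7 pole and 65 non-pole libraries without injury, and 5 pole and 75 non-pole libraries at 72 hours. The study describes fewer cells, and the labels do not mark which of these libraries it used, so all were taken. The labels name no animal, so each group counts as 1 sample, no test between groups was possible, and intervals cover counting error only.

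Planarian muscle cells carry the positional information of the body, and the poles are small clusters of muscle cells at both tips of the head-to-tail axis. The anterior pole is built after head amputation from progenitors that switch on foxD and zicA, a forkhead and a zinc-finger transcription factor, and it secretes notum, an inhibitor of Wnt ligands, and follistatin, an inhibitor of activin-like ligands. notum and follistatin are also induced in muscle at wounds. The posterior pole is marked by wnt1.

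The screen that set the groups amplified wnt1 and a collagen, and its primers are shown because they decided which cell counted as pole. No sequence of the 4 genes themselves was used here.
wnt1 forward: gtgacattatgctcaaaggatttcc
wnt1 reverse: acggacagtgtgataacttaaacg
collagen forward: ggtgtacttggagacgttggttta
collagen reverse: ggtctaccttctcttcctggaac

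Among the libraries, 6 pairs of uninjured non-pole libraries were near-identical and were summed to 1 cell each. With a minimum of 50000 reads, the uninjured groups kept 7 pole and 53 non-pole cells, and the regenerating groups kept 5 and 69. Reads per cell on the transcripts used ran from 51801 to 4132918, with medians of 648498 and 444246 in the uninjured and 906071 and 218403 in the regenerating groups, pole before non-pole. Every pole cell held wnt1 reads, against 6 of 53 and 3 of 69 non-pole cells. Summed collagen levels under 5000 CPM (counts per 1000000 reads on the transcripts used) were found in 19 cells, 1 of them an uninjured pole cell with only 2 wnt1 reads, 12 of them uninjured and 6 of them regenerating non-pole cells, so these cells go against their muscle label.

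The clearest pattern belonged to follistatin. It was read in 5 of 5 regenerating pole cells but in 1 of 7 uninjured pole cells, with 12 of 53 and 18 of 69 non-pole cells beside them. notum was read in a minority of non-pole cells and in no pole cell. foxD was found in 1 cell of each non-pole group, and zicA in a single read. No cell held more than 2 of the 4 genes.

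**Figure D1:**
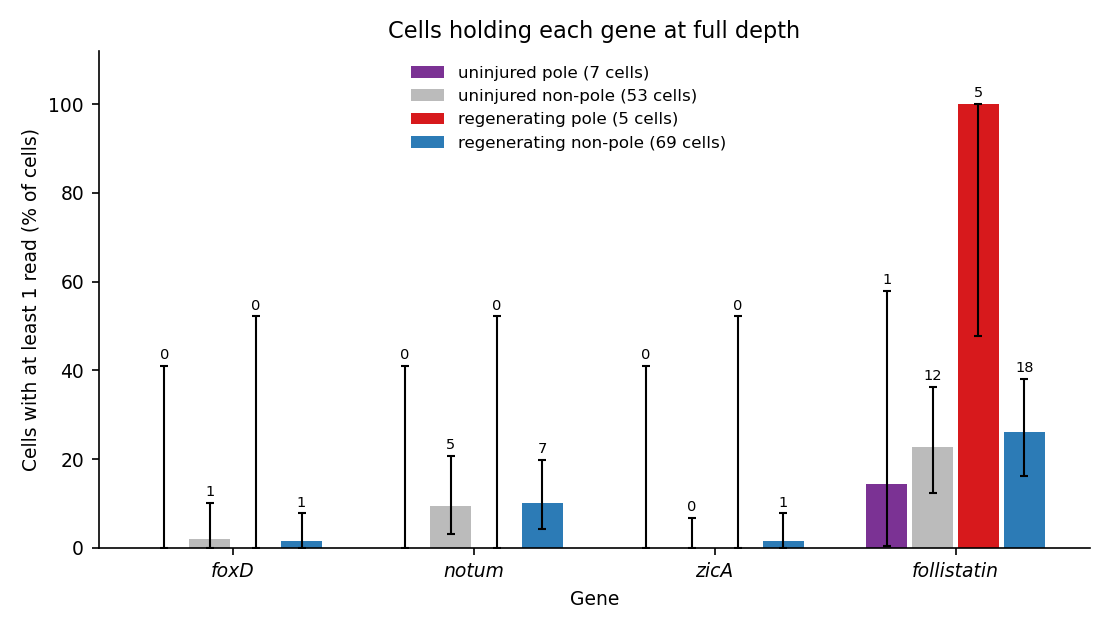
Share of cells with at least 1 read of each gene, in percent of the cells of a group, at full depth. Bars are the 4 groups, error bars are 95% Clopper-Pearson intervals, and the number above each bar is the count of cells. The follistatin bar of the regenerating pole stands at 100% with 5 of 5 cells, and foxD, notum and zicA have no pole cell.

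Among the transcription factors, foxD gave no read in the 7 uninjured and the 5 regenerating pole cells. A count of 3 cells, the limit that a count of 0 allows, would be 42.9% and 60% of those groups, and the exact upper bounds were 40.96% and 52.2%. In summed reads the limit of 3 reads stood at 0.258 CPM over the uninjured and 0.823 CPM over the regenerating pole cells. Over all transcripts with at least 20 reads, 29.8% also had 0 reads in the pole cells of both conditions, so an absence from these 12 cells was common.

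The foxD reads of the uninjured non-pole group all came from 1 of 53 cells, which held 25 reads or 57.2 CPM. This cell, summed from replicates 31 and 32, had a collagen level of 377 CPM, against a group median of 66106 CPM. It also held 8528 CPM of agat-1, a marker of epidermal progenitors, and 1210 CPM of cilia marker transcripts, the highest such sum in its group. Among the kept uninjured cells, the foxD reads therefore sat in a cell whose markers were not those of muscle, and whether the reads belong to that cell was not tested. Cells under 50000 reads held a further 11 and 2 foxD reads in uninjured non-pole replicates 19 and 20.

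In the regenerating non-pole group, foxD was read in 1 of 69 cells, with 316 reads or 744 CPM. Unlike the uninjured cell, this cell (replicate 32) had the profile of muscle, with 44916 CPM of collagens and 31078 CPM of contractile transcripts. It also held 74 follistatin reads, or 174 CPM, and 3 reads of sfrp1, a secreted Wnt inhibitor of the head end. Neither notum nor zicA was read in it. The share of foxD cells was 1.89% (0.0478 to 10.1%) in uninjured and 1.45% (0.0367 to 7.81%) in regenerating non-pole cells, with overlapping intervals. In summed reads foxD was at 15.5 CPM in regenerating and 0.577 CPM in uninjured non-pole cells, a ratio of 26.9 (17.9 to 42.2), which compares these 2 cells with each other.

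zicA, the partner of foxD in the anterior pole program, was found as 1 read in 1 of 69 regenerating non-pole cells. With 0 of 53 uninjured non-pole cells, the limit of 3 cells was 5.66% and the exact upper bound 6.72%. The limits in the pole cells are those given for foxD. A single read in a cell of 193912 reads, or 5.16 CPM, cannot be told from background.

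The cell with the zicA read (replicate 64) stood out by other genes of the head end. It held 69 reads of sfrp1, 394 of the Wnt receptor gene fz5/8-4, 94 of ndk (nou-darake, which restricts brain tissue to the head), 310 of its relative ndk-4 and 275 of zic-2. These correspond to 356, 2032, 485, 1599 and 1418 CPM. It was the only one of the 69 cells with reads of all 5 genes, and no other cell of its group held more than 2 of them. Its collagen level of 57279 CPM was the median of its group. It held 1 follistatin read, no foxD or notum read, and no read of wnt1, pitx or wnt11-2.

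For notum, which encodes the secreted Wnt inhibitor of the anterior pole, no read was found in any of the 12 pole cells. Its limits there are again 42.9% and 60% of cells. The share in non-pole cells lay well under these limits, so a lower share in pole cells was not detectable with 7 and 5 cells.

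In uninjured non-pole cells, notum was read in 5 of 53 cells, or 9.43% (3.13 to 20.7%). The 5 cells held 1 to 551 reads, with levels of 275, 151.3, 67.8, 7.52 and 0.774 CPM. The highest cell held 77.2% of the 714 reads of the group, so the summed level of 16.5 CPM was largely that of replicate 41.

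In regenerating non-pole cells, 7 of 69 cells held notum, or 10.1% (4.18 to 19.8%). Their reads were 68, 62, 24, 12, 5, 4 and 2, with levels from 4.36 to 583 CPM and a median of 54.1 CPM. The summed level was 8.69 CPM over 177 reads. One notum cell, replicate 65 with 5 reads, had only 59.4 CPM of collagens and 10143 CPM of agat-1, whereas none of the 5 uninjured notum cells was under 5000 CPM of collagens.

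The intervals of the 2 shares overlapped, as did the levels in the cells. Thinned to 50000 reads, 5.66% of uninjured and 8.70% of regenerating non-pole cells held notum, and without collagen-poor cells, in a draw of their own, the thinned shares were 9.76% and 6.35%. The median depth of notum cells was 984722 reads without injury and 365019 reads at 72 hours. The summed level was 0.527 of the uninjured one (0.445 to 0.622, or −0.85 as log2 of CPM + 1). The sign of this difference depended on how cells were weighted. As a mean over single cells, notum was at 13.2 CPM in regenerating and 9.47 CPM in uninjured cells, or 0.44 on the log2 scale. Without the top cell of each group the value was 0.37.

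**Figure D2:**
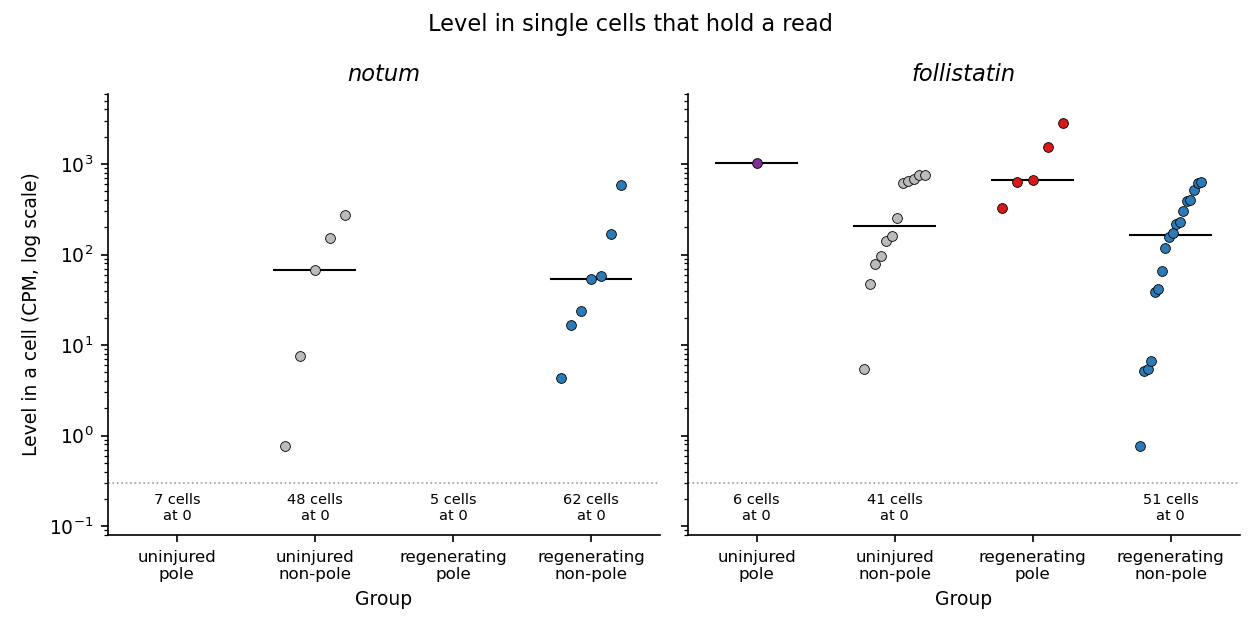
Level of notum (left) and follistatin (right) in each cell that holds a read, in CPM on a log scale, by group. Points are cells, black lines their median, and the text under the dotted line gives the cells with 0 reads. notum has no point in either pole group, and the regenerating pole cells hold follistatin from 327 to 2836 CPM with no cell at 0.

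follistatin, the secreted inhibitor of activin-like signals, was the only one of the 4 genes read in pole cells. In the regenerating pole, the 5 cells held 130, 1457, 652, 296 and 1697 reads, or 625, 1523, 667, 327 and 2836 CPM for replicates 1 to 5. All 5 cells were therefore positive, and their levels overlapped with none of the other pole cells but replicate 5 of the uninjured group. The exact interval of the share was 47.8 to 100%, and all 5 cells still held a read when each was thinned to 50000 reads. Of all transcripts with at least 20 reads, 2.95% were read in every one of these 5 thinned cells.

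In the uninjured pole, only replicate 5 held follistatin, with 4216 reads or 1020 CPM, and the other 6 cells held none. Replicate 5 was the deepest cell of the series with 4132918 reads, yet thinned to 50000 reads it still held the gene. Depth in the 6 negative cells was 84813 to 3271738 reads, and the level that would give 3 reads in them was 0.917 to 35.4 CPM. All these limits lie under the lowest level in a regenerating pole cell, 327 CPM.

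The shares of follistatin cells in the pole groups were 14.3% (0.361 to 57.9%) without injury and 100% (47.8 to 100%) at 72 hours. These exact intervals overlap because so few pole cells were caught. After thinning, 0.181% of transcripts, 35 of 19372, were likewise read in all 5 regenerating and at most 1 uninjured pole cell, a rule set after seeing follistatin. Leaving out the collagen-poor uninjured pole cell made the share 16.7%.

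In summed reads, follistatin stood at 1161 CPM (1126 to 1196) in the regenerating and 362 CPM (351 to 373) in the uninjured pole. This is a ratio of 3.21 (3.07 to 3.35), or 1.68 on the log2 scale, and 23.4% of all transcripts were at least 2-fold higher in this comparison. Without replicate 5, the uninjured pole had 0 reads among 7513815, and the regenerating pole was at least 2907-fold higher, taking 3 reads over the 6 cells as the limit. nr4A, a nuclear receptor gene expressed at the poles, had reads in 5 of 5 regenerating pole cells, a single read in replicates 1 and 2, and in 2 of 7 uninjured pole cells. Its summed level was 251 CPM in the regenerating and 424 CPM in the uninjured pole, the opposite order to follistatin. The uninjured nr4A reads were 4638 in replicate 5 and 297 in replicate 4, so this order rested largely on the same deep cell.

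**Figure D3:**
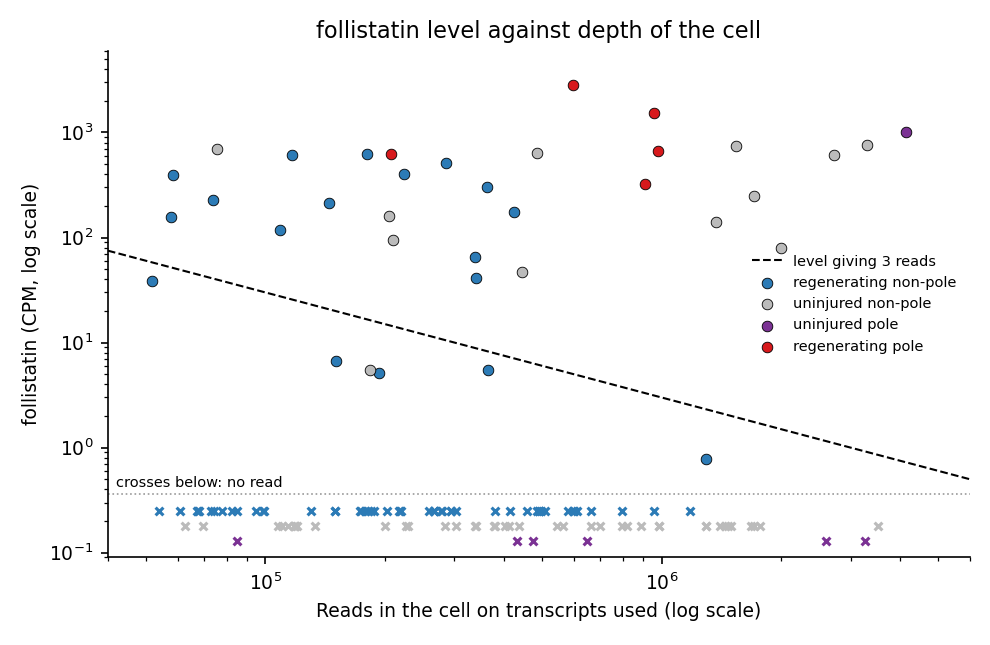
follistatin level in CPM against the reads of the cell, both on log scales, in the 4 groups. Circles are cells with a read, crosses under the dotted line are cells with none (their height has no meaning), and the dashed line is the level that gives 3 reads. Cells without follistatin occur over the whole range of depth, including uninjured pole cells of 2601224 and 3271738 reads, and all regenerating pole cells lie far above the line.

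In uninjured non-pole muscle, follistatin was read in 12 of 53 cells, or 22.6% (12.3 to 36.2%). The lowest, median and highest levels in these cells were 5.44, 206 and 752 CPM, and 5 of them were at or above the lowest regenerating pole cell. Summed over the group the level was 150.8 CPM (147.2 to 154.5). The 3 cells with most reads held 81.4% of the 6532 reads.

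Regenerating non-pole cells held follistatin in 18 of 69 cases, or 26.1% (16.3 to 38.1%). The lowest, median and highest levels were 0.771, 165 and 627 CPM, again with 5 cells at or above the lowest regenerating pole cell. The summed level was 36.3 CPM over 739 reads. Of the 5 regenerating pole cells, 2 lay above every non-pole cell, whose highest level was 752 CPM, and 3 lay within the range of non-pole cells.

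The share of follistatin cells among all non-pole cells thus differed little with injury, and thinning gave 20.8% and 21.7%. Without collagen-poor cells, in a draw of their own, the thinned shares were 26.8% and 20.6%, so their order was not stable. The summed level was nevertheless 0.241 of the uninjured level after injury (0.223 to 0.260, or −2.03 on the log2 scale), in a comparison where 29.02% of all transcripts were at least 2-fold lower. The size of this difference depended on how cells were weighted, and the part of depth in it was not tested. Without the top cell of each group the log2 value was −1.74. The median depth of follistatin cells was 926508 reads without injury and 187106 reads at 72 hours, and the mean over single cells was 79.7 and 56.5 CPM, a log2 difference of only −0.49.

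Pole cells were then set against non-pole cells of the same condition. At 72 hours, summed follistatin was 32 times as high in pole cells (29.6 to 34.6, or 4.96 on the log2 scale), and 13.2% of all transcripts were at least 2-fold higher in that comparison. The mean over single cells, 1196 against 56.5 CPM, gave 4.38. Leaving out each regenerating pole cell in turn kept the value between 4.48 and 5.27.

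Without injury, the same ratio was 2.40 (2.31 to 2.50, or 1.26 on the log2 scale), where 18.9% of transcripts were at least 2-fold higher. It rested on replicate 5 alone. Without that cell, uninjured pole cells had no read and were at least 378-fold lower than non-pole cells. follistatin is on the study's list of pole-enriched transcripts drawn from these cells, so its higher level is no independent evidence. Whether the pole-to-non-pole difference itself differs between conditions was not tested.

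Markers of other cell types were not level across the groups. Neuron marker transcripts summed to a median of 716 CPM in regenerating pole cells (81.5 to 1621) against 50.4 CPM in uninjured pole cells (0 to 1062) and 76.9 CPM in regenerating non-pole cells (0 to 1248). Of the 10 markers, 8 were tested. In the regenerating pole 5 were at least 2-fold higher and 2 lower than in regenerating non-pole cells (13.2% and 37.8% of all transcripts), and 5 were higher and 1 lower than in the uninjured pole (23.4% of all transcripts were higher), and their part in the follistatin values was not tested. Cilia markers had medians of 24.04 CPM or less in all 4 groups, and agat-1 was at 0 in every pole cell. Cell division and stem cell markers had medians of 716 CPM in the regenerating pole, 433 CPM in the uninjured pole, and 420 and 486 CPM in uninjured and regenerating non-pole cells.

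Joint presence was rare. Over all groups, 45 cells held a read of any of the 4 genes, 39 of them exactly 1 gene and 6 of them 2 genes. notum and follistatin shared 4 cells, foxD and follistatin 1 cell, and zicA and follistatin 1 cell. foxD and notum, the pair that marks the anterior pole, were together in no cell. As foxD was read in only 2 kept cells and notum in 12, this cannot tell whether the 2 genes avoid each other. The limit of 3 cells was 2.24% of all kept cells, and the exact upper bound 2.72%.

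The cells with notum and follistatin were 1 uninjured and 3 regenerating non-pole cells. Replicate 41 of the uninjured group held 551 notum and 158 follistatin reads. Replicate 5 of the regenerating group held 68 and 71 reads, replicate 58 held 62 and 2, and replicate 45 held 4 and 17. follistatin was present in 4 of 12 notum cells (33.3%) and in 26 of 110 non-pole cells without notum (23.6%), and notum in 4 of 30 follistatin cells (13.3%) and in 8 of 92 without (8.70%). The median depth of cells with notum was 436027 reads, against 272666 in the others, so chances of a read were not equal.

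**Figure D4:**
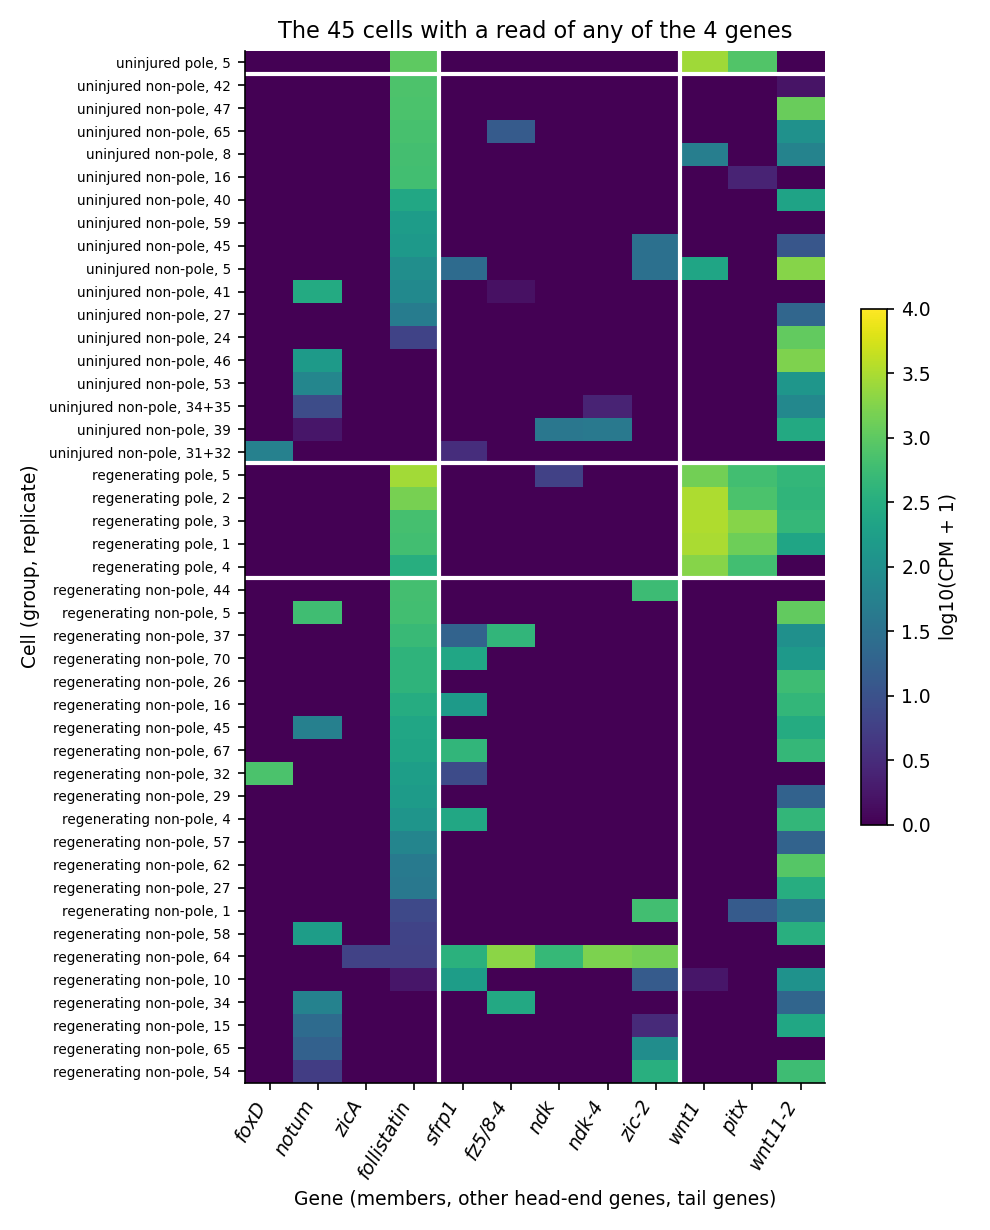
The 45 cells with a read of any of the 4 genes, 1 cell per line, with the log10(CPM + 1) level of the 4 genes, 5 other head-end genes and 3 tail genes. White lines part the groups of cells and of genes. follistatin fills most of the 4 left columns. foxD is in only 2 lines, neither with notum, and 1 regenerating non-pole cell, replicate 64, has all 5 other head-end genes.

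Among non-pole cells with notum or follistatin, wnt11-2 was the common tail gene and the others were rare. Non-pole cells had been negative for wnt1 in the screen, so few wnt1 reads were set by the grouping. The pole cells with follistatin all held wnt1 and pitx reads. wnt11-2, a Wnt gene of the posterior, was read in 10 of 12 notum cells (83.3%) and in 24 of 30 non-pole follistatin cells (80%). In cells without the gene the shares were 60% (66 of 110) and 56.5% (52 of 92). wnt1, pitx, islet1 and the homeobox gene otxb-like were read in none of the 12 notum cells, against 9, 15, 6 and 4 of the 110 others. In the 30 non-pole follistatin cells they were read in 3, 2, 2 and 0, against 6, 13, 4 and 4 of the 92 others. With 12 notum cells, a count of 0 cannot be told from the shares in the others. Collagen-poor cells numbered 1 with notum and 17 without, and 1 with follistatin and 17 without, so the compared cells were not alike.

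sfrp1 was read in 8 of 18 regenerating non-pole cells with follistatin (44.4%) and in 9 of 51 without (17.6%), and in 7 and 9 of these after thinning. In uninjured non-pole cells it was read in 1 of 12 and 1 of 41. No notum cell held sfrp1, against 19 of 110 other non-pole cells. By condition this was 0 of 7 against 17 of 62 regenerating cells, and 0 of 5 against 2 of 48 uninjured cells. These notum cells are too few to tell the shares apart. fz5/8-4 was read in 16.7% of uninjured non-pole cells with follistatin and 4.88% without, and in 11.1% and 21.6% of regenerating ones, so the order was opposite in the 2 conditions.

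Of the other 5 head-end genes, 3 were read in more regenerating than uninjured non-pole cells. sfrp1 was read in 2 of 53 uninjured and 17 of 69 regenerating non-pole cells, fz5/8-4 in 4 and 13, and zic-2 in 3 and 10. ndk was read in 4 and 2 cells and ndk-4 in 3 and 3. In summed levels 4 of these 5 genes were at least 2-fold higher at 72 hours (19.9% of all transcripts), with a list median of 4.48 on the log2 scale against −0.22 for all transcripts. Replicate 64 alone held 310 of the 318 ndk-4 reads of its group, and without it ndk was at 0.446 instead of 5.06 CPM, under the 3.19 CPM of uninjured cells. Leaving it out, an alternative chosen after seeing the data, 3 of the 5 genes were at least 2-fold higher, and ndk-4 was at 0.397 CPM against 1.39 CPM without injury. In regenerating pole cells, 4 of the 5 had 0 reads and ndk had 3, where the limit of 3 reads was 0.823 CPM. The share of all transcripts with 0 reads in that group alone was not counted. Uninjured pole cells held 1 ndk read, 30 ndk-4 reads and 17 zic-2 reads, each in a single cell. Both pole groups had 0 reads of sfrp1 and fz5/8-4, as for 29.8% of all transcripts.

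follistatin acts on the activin and BMP family of signals, and genes of that pathway were read in pole cells with and without follistatin. Of 7 genes of the BMP and activin pathway, 4 were at least 2-fold higher in regenerating pole than non-pole cells and 1 was at least 2-fold lower (13.2% and 37.8% of all transcripts), and the list median was 1.77 on the log2 scale against −0.43 for all transcripts. Without injury, where 18.9% of transcripts were higher and 48.1% lower by the same fold, 3 were higher and 1 was lower, and the median was 0.98 against −0.91. BMP, the dorsal ligand gene, was at 339 CPM at the regenerating pole, against 34.3 CPM outside it. Without injury it was at 419 CPM in pole and 11.4 CPM in non-pole cells. BMP was read in 7 of 7 uninjured and 3 of 5 regenerating pole cells. noggin1, higher in pole cells in both conditions, was read in only 1 pole cell of each. bambi, which encodes a decoy receptor in vertebrates, had 0 reads in regenerating pole cells and 62.6 CPM in the uninjured pole.

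Among 17 genes of the Wnt pathway, which overlap with the head-end and tail genes, 16 were tested. In regenerating pole against non-pole cells 5 were at least 2-fold higher and 8 lower, beside 13.2% and 37.8% of all transcripts. Without injury 4 were higher and 5 lower, beside 18.9% and 48.1%, so the share of higher genes was near that of all transcripts. Of the 5 tail genes, which include the screened wnt1, 4 were higher in pole cells in each condition, and of the 4 genes of both poles 3 were. Without injury, wnt11-2 (−3.78 on the log2 scale) and islet2 (−2.74) were lower, and at 72 hours 0 genes of these lists were. The 3 higher genes of both poles were not the same. nr4A was higher only without injury (1.77, then −0.14) and islet2 only at 72 hours (2.02). The study lists pitx and islet1 as pole-enriched in these cells, and took the genes of both poles from its own pole sequencing. These counts are therefore no independent evidence. None of 12 collagens and none of 12 contractile genes was higher in pole cells. At least 2-fold lower were 9 collagens and 9 contractile genes without injury (48.1% of all transcripts), and 4 and 7 at 72 hours (37.8%). The share of lower collagens at 72 hours was thus near that of all transcripts. Like the follistatin values, these are descriptions of 1 sample per group.

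The transcripts whose presence was most like that of each gene were sought over the non-pole cells, each thinned to 50000 reads, among 12722 transcripts. For follistatin, read in 26 of these thinned cells, the leading transcript was dd_Smed_v4_9565, which the study names col21a1 after a collagen gene, with a phi coefficient of 0.47. It was read in 58 cells, 24 of them follistatin cells, and the next 4 transcripts had 0.43, 0.41, 0.40 and 0.40. These are the highest of 12722 values, and what such a choice gives by itself was not tested. Collagen-poor cells numbered 17 among non-pole cells without follistatin and 1 among those with it, and their part was not tested. For notum, read in 9 thinned cells, the 5 leading transcripts were tied at 0.42, each sharing 3 of 5 cells with it.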

How the data were processed

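Members and gene lists were chosen with earlier results of these data known. The deposited values are raw read counts per transcript and library, made by the authors from Smart-seq2 cDNA, which is amplified without molecular identifiers. Tools named in the submitters' processing notes are CASAVA 1.7.0, Trimmomatic 0.32 and Bowtie, with the counter of reads not given in the sources used here. The authors' own pole comparison (SCDE fold estimates and Z scores), deposited as a second file, was not used.

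Of 26566 entries, 6 were left out (a mitochondrial entry with 19.9% of all counted reads, 2 contigs with 43.7%, a 5S rRNA entry, an unidentified entry and an entry with 0 reads), and entries sharing a contig number were summed (156 numbers). The transcripts used held 36.4% of counted reads. Libraries of a group whose counts differed by a chi-square under 10 per degree of freedom, over transcripts with at least 20 reads, were summed (6 pairs at 1.28 to 7.41, others at 22.2 or more). Cells were kept with at least 50000 reads and 500 transcripts, which left out 12. Doublets were not sought, as cells were sorted singly.

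Counts were summed per group and given as CPM with exact 95% Poisson intervals, shares with Clopper-Pearson intervals, and ratios with conditional binomial intervals. Log2 differences used CPM + 1. Cells were thinned to 50000 reads by 1 seeded draw without replacement. Folds were counted over transcripts with at least 20 reads. Named genes were the 4 members, the list genes and, for members read in at least 5 cells, the 5 transcripts of highest phi coefficient among those read in at least 5 thinned non-pole cells. Alternatives covered depth, thinning, read minimum, pairs of libraries, collagen-poor cells, pseudocount, weighting of cells, TMM scaling and single cells left out. Scripts were tested on simulated data. Python 3.11.15, numpy 2.4.6, pandas 2.3.3, scipy 1.17.1, R 4.3.3 and edgeR 4.0.16 (for TMM only) were used.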

Additional observations from a re-analysis of the deposited data

Results flagged for a closer look

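In the uninjured pole, 1 of 7 cells stood far from the others in follistatin, at 1020 CPM against 0 in the remaining 6. With 6 cells at 0, any level in the remaining cell would have been flagged by this measure of distance, so the flag adds nothing to the counts. By the same measure, no regenerating pole cell stood apart.

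The 12 cells left out for low depth held 16 foxD reads, 3 notum reads, 0 zicA reads and 5 follistatin reads. The foxD reads lay in 3 of these cells, with 11 and 2 reads in uninjured replicates 19 and 20 and 3 reads in regenerating replicate 46, all non-pole. The follistatin reads lay in 3 cells. With only 156 to 48649 reads each, these cells were in no comparison.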

How the results depend on the processing

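The shares of cells with each gene stayed within their intervals under every alternative run on them. Summed levels and log2 differences left the narrow counting intervals more often, and the cause was not tested beyond what each alternative removes.

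As a mean of single cells, levels in CPM were 1.08 and 10.8 for foxD and 9.47 and 13.2 for notum in uninjured and regenerating non-pole cells, and for follistatin 145.7 in the uninjured pole, 79.7 in uninjured non-pole and 56.5 in regenerating non-pole cells. As CPM over all counted reads the values were 0.266 and 3.68 for foxD, 7.60 and 2.06 for notum, and 184, 69.5, 348 and 8.60 for follistatin in uninjured pole and non-pole and regenerating pole and non-pole cells. Without the top cell of a group, foxD was 0 in both non-pole groups and zicA 0, notum 3.95 and 5.38, and follistatin 0, 101.1, 831.6 and 29.5 in the same order. Without collagen-poor cells, uninjured non-pole levels were 0 for foxD, 18.7 for notum and 171 for follistatin, and regenerating non-pole follistatin was 39.4.

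The log2 difference of follistatin between pole and non-pole cells became 1.16 without injury and 4.52 at 72 hours under TMM scaling, 0.86 and 4.38 as a mean of single cells, and 1.09 and 4.84 without collagen-poor cells. A pseudocount of 10 CPM gave 4.66 at 72 hours. Leaving out single pole cells gave −7.25 (without replicate 5, when the pole had no read and the value depends on the pseudocount) to 1.73 without injury, and 4.48 to 5.27 at 72 hours.

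Between regenerating and uninjured non-pole cells, a pseudocount of 10 CPM gave −1.80 for follistatin, −0.50 for notum and 1.27 for foxD. The mean of single cells gave −0.49, 0.44 and 2.50, and leaving out the top cells gave −1.74 for follistatin and 0.37 for notum, with no foxD value left. Between the pole groups, alternatives added after seeing the data gave 3.03 as a mean of single cells. No paired analysis was possible because the replicate numbers are accession order only.

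With 7 and 5 pole cells, a count of 0 allows shares of up to 40.96% and 52.2%, and the spread between animals is unknown with 1 sample per group.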
